A study of Rattus norvegicus with 10 samples.

Results

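The Hox genes, the homeobox transcription factors that lie in 4 chromosomal clusters (Hoxa, Hoxb, Hoxc and Hoxd), were examined in whole testes of rat pups. The members were the array probes whose RefSeq transcript carries a rat symbol that starts with Hoxa, Hoxb, Hoxc or Hoxd followed by a digit. They comprised 22 probes for 20 genes, of 30367 probes on the array, of which 17998 could be given a symbol and stand for 15154 genes. The RefSeq table lists 42 genes under such names, and the other 22 had no probe that could be matched. The 42 and the 22 count Hoxa11-as and Hoxb5os, which carry such names but are long non-coding RNAs.

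Each sample was total RNA of testes from postnatal day 6 males, offspring of Brown Norway males crossed with Sprague Dawley females. The sires had been given saline or BEP for 9 weeks and then had 9 weeks of recovery. The labels leave BEP unexplained; in oncology it stands for bleomycin, etoposide and cisplatin given together. The sire codes hold a letter C (5 arrays) or T (5 arrays). The labels do not say which letter is which treatment, so reading C as saline and T as BEP is an inference, and the groups are called C and T. The pups of both groups had the same cross and age, and only their sires were treated, so the pups themselves had received neither saline nor BEP. The labels do not say how many pups gave the RNA of 1 array. The sire codes differed between the 5 arrays of a group. The p-values therefore measure the spread between samples of different sires, and 10 arrays limit the precision.

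Hox proteins bind DNA through a homeodomain, commonly together with TALE-class partners such as Pbx and Meis, and they give cells a position along the body axis. Genes of one cluster lie in the order of their paralogue groups, 1 at one end and 13 at the other, and the lower groups are in general used earlier and nearer the head than the higher ones. The Wolffian duct and its derivatives, the epididymis and vas deferens, use Hox genes of the higher groups, and in mice loss of Hoxa10 or Hoxa11 disturbs the male reproductive tract.

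Members detected on at least 5 of the 10 arrays lay in paralogue groups 4 to 10. The bands below were cut at the lowest and highest of these groups. The lack of such members outside groups 4 to 10 follows from that cut, and a split by position was not tested. A probe was counted as detected on an array where at least 1 of its spots was called well above background by the scanner software, and it entered the comparisons if that held on at least 5 of the 10 arrays. None of the 5 probes (4 genes) of paralogue groups 1 to 3 and none of the 5 probes (5 genes) of groups 11 to 13 was detected on that many arrays. Of the 12 probes (11 genes) of groups 4 to 10, 8 probes for 8 genes were. Over the whole array 21914 of 30367 probes, 72.2%, passed the same rule. These were all members with a matched probe. No probe was matched to 5 of 9 genes of groups 1 to 3, 12 of 23 of groups 4 to 10 and 5 of 10 of groups 11 to 13. Probes for them may be among the 12369 without a symbol, so their RNA was not read here. The 12 of 23 count the non-coding Hoxb5os, and the 5 of 10 of groups 11 to 13 count the non-coding Hoxa11-as.

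The promoters of 4 genes at one end of the Hoxd cluster are shown because they fell on either side of detection: Hoxd13 and Hoxd12 were detected on no array, and Hoxd10 and Hoxd9 on all 10. Hoxd11, which lies between Hoxd12 and Hoxd10, had no matched probe, so where detection changed between them was not seen. They were chosen after the values were seen. Each runs from 250 bases before to 50 after the gene's start in RefSeq's GRCr8 build, on the + strand, at chr3:79977827-79978126 for Hoxd13, chr3:79984856-79985155 for Hoxd12, chr3:80001697-80001996 for Hoxd10 and chr3:80007756-80008055 for Hoxd9. Capitals mark each CG, the dinucleotide that vertebrate DNA methylation acts on.
Hoxd13: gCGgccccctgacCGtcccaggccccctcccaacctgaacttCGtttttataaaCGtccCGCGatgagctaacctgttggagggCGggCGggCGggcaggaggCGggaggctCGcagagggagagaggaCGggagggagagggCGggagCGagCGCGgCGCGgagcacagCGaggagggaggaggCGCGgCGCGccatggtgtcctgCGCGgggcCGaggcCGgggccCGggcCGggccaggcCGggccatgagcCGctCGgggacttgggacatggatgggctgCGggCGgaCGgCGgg
Hoxd12: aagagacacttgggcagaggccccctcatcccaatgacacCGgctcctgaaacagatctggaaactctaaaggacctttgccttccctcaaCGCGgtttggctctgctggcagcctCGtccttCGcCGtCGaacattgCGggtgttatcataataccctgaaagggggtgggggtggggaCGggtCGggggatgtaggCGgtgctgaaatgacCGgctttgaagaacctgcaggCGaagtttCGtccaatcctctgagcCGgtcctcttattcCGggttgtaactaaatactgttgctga
Hoxd10: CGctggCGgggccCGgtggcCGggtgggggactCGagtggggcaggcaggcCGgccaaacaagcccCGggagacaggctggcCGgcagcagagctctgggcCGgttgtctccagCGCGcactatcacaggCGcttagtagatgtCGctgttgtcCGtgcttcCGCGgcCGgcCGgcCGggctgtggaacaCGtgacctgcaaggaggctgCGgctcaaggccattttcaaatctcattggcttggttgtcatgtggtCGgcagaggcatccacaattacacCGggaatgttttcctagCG
Hoxd9: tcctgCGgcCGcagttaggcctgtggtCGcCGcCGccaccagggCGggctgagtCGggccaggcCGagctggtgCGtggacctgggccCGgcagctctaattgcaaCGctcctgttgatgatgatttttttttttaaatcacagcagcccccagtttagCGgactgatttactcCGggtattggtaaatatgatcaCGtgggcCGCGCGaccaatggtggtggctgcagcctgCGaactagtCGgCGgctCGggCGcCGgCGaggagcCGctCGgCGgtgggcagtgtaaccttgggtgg
The Hoxd13 window holds 36 CG, more than 94.6% of the 33469 windows of this length in the table, and that of Hoxd12 holds 16, more than 69.5%. Those of Hoxd10 and Hoxd9 hold 24 and 27, more than 82.0% and 86.1%. The CG count therefore did not order the 4 genes by detection. A window was found for 11 of the 20 genes. The 5 windows of detected genes held 6 to 29 CG (median 24) and the 6 of the others 9 to 36 (median 23), against a median of 7 over all windows. The homeodomain core TAATTA, searched on both strands, was in none of the 11 Hox windows and in 5.36% of all windows. The Pbx and Hox motif TGATTNAT was in the Hoxa2 window alone among the 11, and in 3.18% of all windows. The TATA motif TATAAA was in the Hoxd13 window alone among the 11, and in 14.2% of all windows. The 3 motifs were searched separately, and a match could overlap one of another motif.

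In the Hoxa cluster on chromosome 4, 5 genes had a probe and 1, Hoxa7, was tested. Hoxa2, Hoxa6 and Hoxa11 were detected on 0 arrays. In the Hoxb cluster on chromosome 10, 2 of 6 genes with a probe, Hoxb4 and Hoxb7, were tested. Hoxb9 and Hoxb13 were detected on 0 arrays. Hoxb3 was detected on T replicate 1 alone, at a log2 signal of -6.29 relative to the array's 75th percentile, and Hoxb8 on C replicate 1 alone, at -6.75. In the Hoxc cluster on chromosome 7, 2 of 3 genes with a probe, Hoxc4 and Hoxc5, were tested, and the third, Hoxc12, was detected on C replicate 5 alone, at -7.07. In the Hoxd cluster on chromosome 3, 3 of 6 were tested (Hoxd4, Hoxd9 and Hoxd10), and Hoxd1, Hoxd12 and Hoxd13 were detected on 0 arrays. The grid of detection by cluster and paralogue group shows this middle band.

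**Figure D1:**
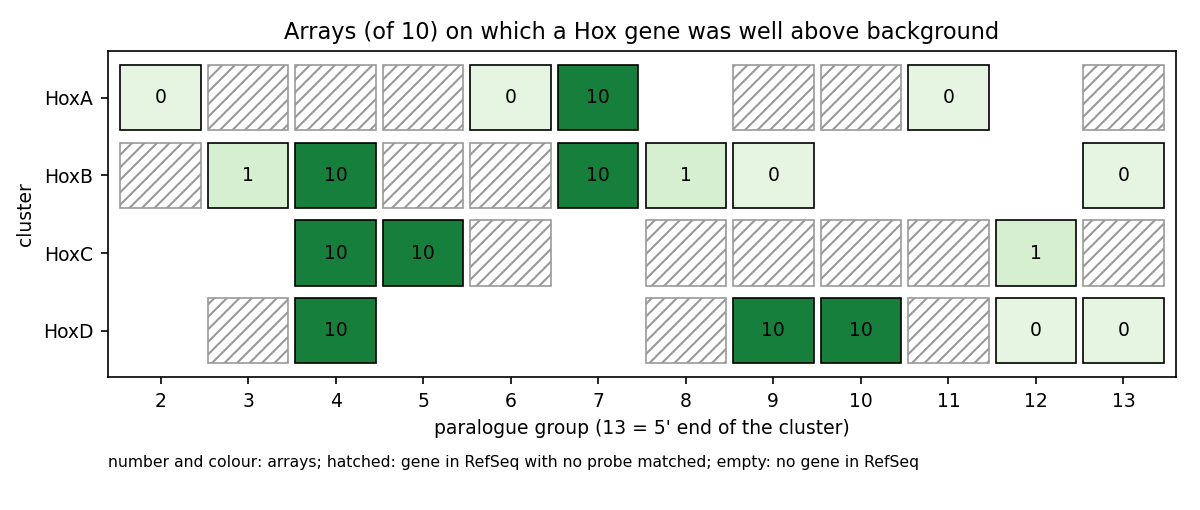
Number of the 10 arrays on which each Hox gene was well above background, by cluster (rows) and paralogue group (columns, 2 to 13); for a gene with several probes the highest count is given, and genes with no matched probe are marked as such. The 8 genes at 10 arrays all lie in groups 4 to 10, and no other gene in the grid exceeds 1 array.

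All 8 tested probes were above background on all 10 arrays, so no group or array decided which probes passed. The other 14 probes comprised 11 detected on 0 arrays and 3 detected on 1. Their log2 values ran from -9.13 to -6.29 with a median of -8.46, where the dimmest detected probe of an array lay between -8.59 and -7.42. The range includes the 3 detected values, -6.29 for Hoxb3 on T replicate 1, -6.75 for Hoxb8 on C replicate 1 and -7.07 for Hoxc12 on C replicate 5. Where these 14 probes were not detected, their level is only bounded by the background, and none was compared between groups. Hoxc5 had a second probe that was detected on 0 arrays, at -8.92 to -7.14, so the 2 probes of this gene disagreed. In the RefSeq annotation the spans of Hoxc4 and Hoxc5 overlap that of Hoxc6, which had no matched probe, and that of Hoxa6 overlaps Hoxa3. The span of Hoxd4 overlaps the gene LOC120101573, and that of Hoxb3 overlaps LOC102550580. Which of the overlapping transcripts a probe bound was not tested.

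The levels that follow are log2 of the processed signal minus the 75th percentile of the array, so that 0 is the 75th percentile. Different probes bind with different strength, and each level is the probe's own and ranks no gene above another. In whole testes, fewer cells that carry a transcript and less of it per cell cannot be told apart.

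Hoxd9, which takes part in limb and axial patterning in mice, gave 1.52, 1.68, 1.62, 1.84 and 1.74 on C replicates 1 to 5 and 1.79, 1.74, 1.70, 1.65 and 1.98 on T replicates 1 to 5. All 10 arrays were above the 75th percentile, with a mean of 331% of it (geometric mean). The groups overlapped, with the lowest value on C replicate 1 and the highest on T replicate 5. Hoxd10, its neighbour in the cluster, gave -0.70, -0.35, -0.53, -0.22 and -0.57 in C and -0.41, -0.36, -0.64, -0.64 and -0.44 in T. Its mean was 71.4% of the 75th percentile, and both its lowest and its highest value were in C, so the T arrays lay within the C range.

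Hoxd4, a gene of the hindbrain and neck vertebrae in mice, gave -3.90, -3.95, -3.88, -3.53 and -3.78 in C. It gave -3.66, -3.99, -3.82, -3.81 and -3.90 in T, and its whole range over the 10 arrays was 0.46. C replicate 4 stood highest, and the groups overlapped. Hoxb4, which in mice acts in axial patterning and in blood progenitors, gave -5.57, -5.73, -6.05, -5.75 and -6.01 in C and -5.87, -5.67, -5.84, -5.61 and -6.44 in T. The lowest and highest arrays were T replicate 5 and C replicate 1, and 4 of the 5 T arrays lay within the C range. Hoxc4 gave -4.88, -5.03, -5.27, -5.02 and -4.92 in C and -5.32, -5.09, -5.08, -4.99 and -4.83 in T. Both its lowest and its highest value were in T.

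Hoxc5 gave -5.06, -5.28, -5.40, -5.68 and -5.98 in C and -5.30, -5.07, -5.89, -6.37 and -5.70 in T. The groups overlapped over most of a range of 1.31. Hoxa7, which patterns the trunk skeleton in mice, gave -4.03, -3.95, -4.42, -3.65 and -4.09 in C and -4.03, -4.01, -3.57, -3.83 and -3.97 in T. C replicate 3 was lowest and T replicate 3 highest. Hoxb7, which is expressed in the mesonephric duct and ureteric bud of mouse embryos and whose promoter is used there to mark that epithelium, gave -3.64, -4.10, -4.57, -3.32 and -4.43 in C and -3.52, -4.31, -3.49, -2.97 and -4.12 in T. Its range of 1.60 was the widest of the 8 probes, and both groups held arrays at both ends of it.

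**Figure D2:**
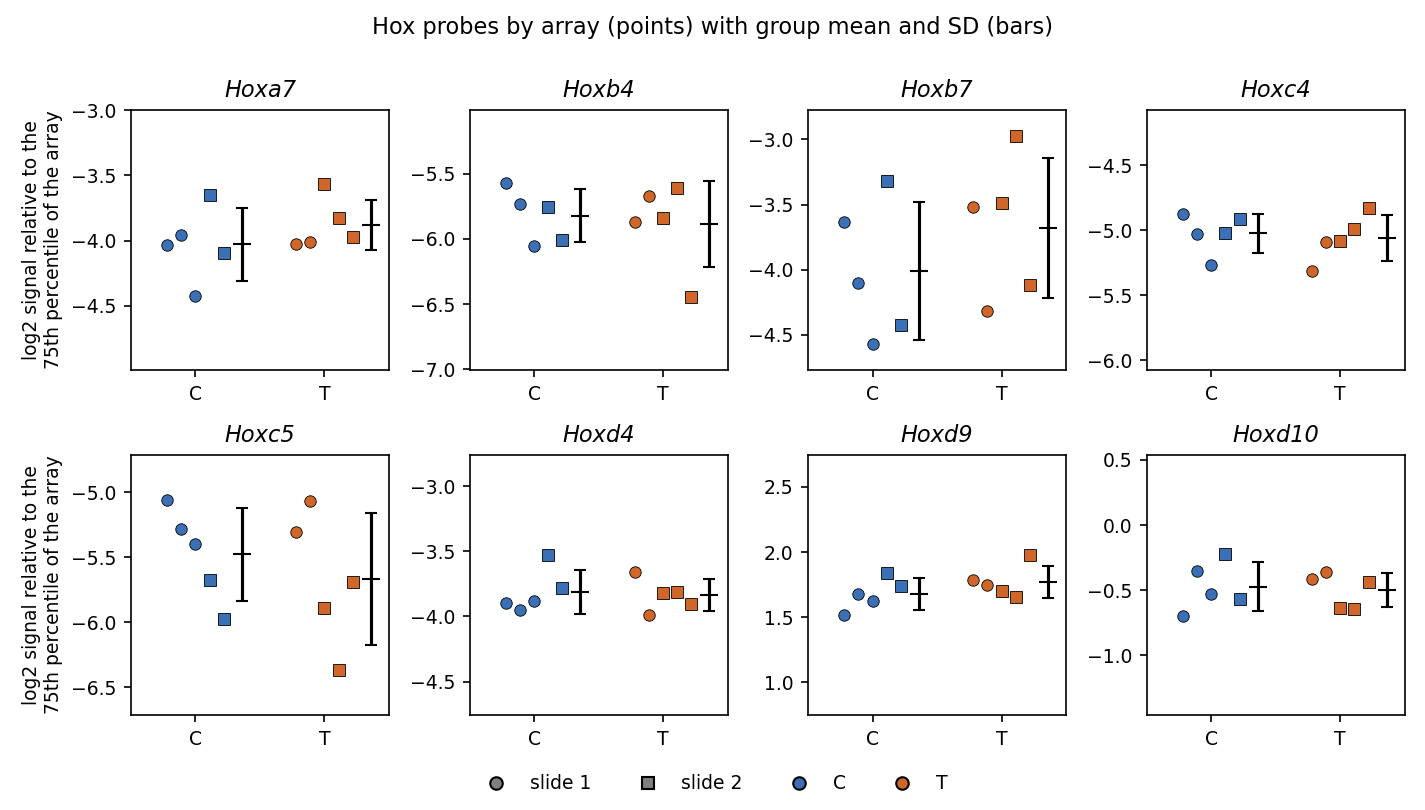
Log2 signal relative to the array's 75th percentile of the 8 tested Hox probes on the 5 C and 5 T arrays, 1 panel a probe, with circles for slide 1, squares for slide 2 and bars for the group mean and SD. The points of C and T overlap in every panel, and the range runs from 0.46 for Hoxd4 and Hoxd9 to 1.60 for Hoxb7.

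The comparison of T with C asked whether the testes of pups differed with the treatment of the sire. In a limma fit over all 21914 tested probes, with Benjamini-Hochberg adjustment over all of them, 0 of the 8 Hox probes passed an adjusted p of 0.05, and neither did any other probe (0%). At an unadjusted p under 0.05 the count was 0 of 8 Hox probes, against 3.97% of all probes (869). The groups did not overlap for 0 of 8 Hox probes and for 0.722% of all probes with a value on every array. Of the 8, 3 were higher in T and 5 lower, where 41.6% of all probes were higher. The median difference was -0.02 on the log2 scale, for the Hox probes and for all probes alike.

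Hoxb7 had the widest difference, 0.33 ± 0.30 (SE), from -4.01 ± 0.53 (SD, n = 5) in C to -3.68 ± 0.54 (SD, n = 5) in T, with limma's adjusted p at 0.999. The 95% interval ran from -0.33 to 0.99, which reached a 1.98-fold higher level in T. The difference was 0.27 with slide as a block, 0.19 within slide 1 and 0.35 within slide 2. Hoxc5 was next at -0.19 ± 0.25 (SE), with an interval from -0.73 to 0.35 and group means of -5.48 ± 0.36 (SD, n = 5) in C and -5.67 ± 0.51 (SD, n = 5) in T. With slide as a block it was -0.05. It was 0.06 within slide 1 and -0.16 within slide 2, each with 2 or 3 arrays a group. Whether it depended on the slide was not tested.

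For Hoxa7 the difference was 0.15 ± 0.14 (SE), with an interval from -0.16 to 0.46, and 0.10 with slide as a block, 0.12 within slide 1 and 0.08 within slide 2. For Hoxd9 it was 0.09 ± 0.08 (SE), from -0.09 to 0.27, with means of 1.68 ± 0.12 in C and 1.77 ± 0.13 in T (SD, n = 5 each). It was 0.16 within slide 1 and -0.01 within slide 2. The remaining 4 lay closer to 0. Hoxb4 differed by -0.06 ± 0.16 (SE), Hoxc4 by -0.04 ± 0.10, Hoxd4 by -0.03 ± 0.09 and Hoxd10 by -0.02 ± 0.10. Their unadjusted p-values in the limma fit lay between 0.689 and 0.824 with n = 5 a group, and the direction of each reversed under at least 1 alternative. The 95% intervals excluded a change of 1.5-fold either way for 6 of the 8 probes, all but Hoxb7 and Hoxc5, and a change of 2-fold for all 8. The SD within groups ran from 0.12 for Hoxd9 to 0.53 for Hoxb7, with a median of 0.20, against a median of 0.16 over all probes.

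**Figure D3:**
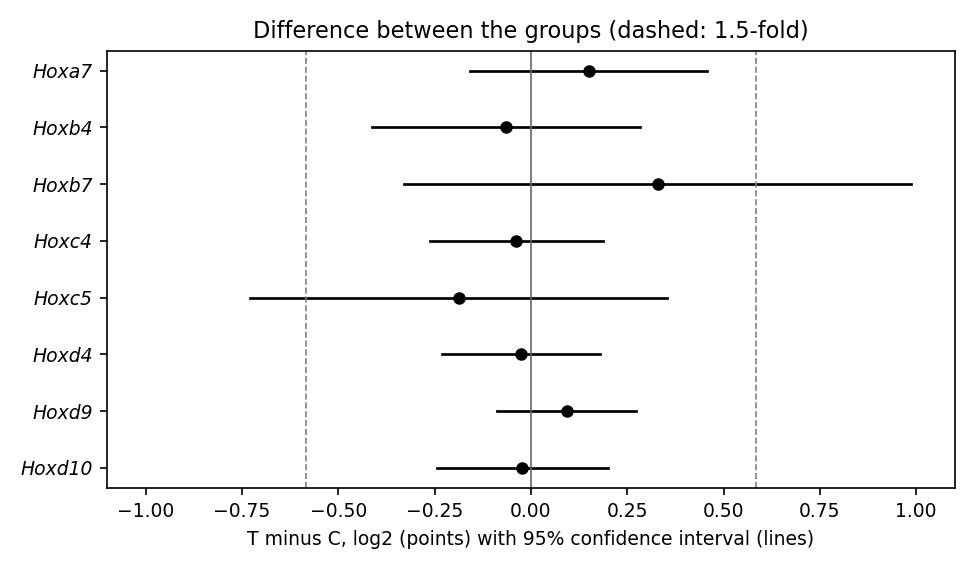
Difference between T and C (log2, T minus C) of the 8 tested Hox probes, as points with 95% confidence intervals from the limma fit over all probes. Every interval includes 0, from -0.19 for Hoxc5 to 0.33 for Hoxb7.

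The arrays came from 2 slides, which were also 2 scans, slide 1 with 3 C and 2 T arrays and slide 2 with 2 C and 3 T arrays. With group as a term, 1 of the 8 Hox probes, Hoxc5, differed between slides at limma's adjusted p under 0.05, where 9.77% of all probes did (2141). This comparison was added after the Hoxc5 values had been seen. Hoxc5 stood at -5.22 ± 0.15 (SD, n = 5) on slide 1 and -5.92 ± 0.28 (SD, n = 5) on slide 2, a difference of -0.69 ± 0.14 (SE) with limma's adjusted p at 0.0109. Every slide 1 array lay above every slide 2 array, which held for 1 of the 8 Hox probes, where 11.3% of all probes separated the slides in either direction. Within the C arrays the difference was -0.58 (limma's adjusted p = 0.204) and within the T arrays -0.80 (limma's adjusted p = 0.109). With normexp background correction and its offset of 50 units the difference was -0.35 (limma's adjusted p = 0.0535). The Hoxc5 probe had 1 spot on the array, where the other 7 tested Hox probes had 2, with a median signal of 46.7 units against a 75th percentile of 1525 to 2686 units. The other 7 did not pass the slide comparison. At an unadjusted p under 0.05 the count was again 1 of 8, against 24.1% of all probes, and 3 of 8 were lower on slide 2 (Hoxb4, Hoxc5 and Hoxd10), against 57.1% of all probes. The next widest were Hoxb7 at 0.31 ± 0.30 (SE) and Hoxa7 at 0.25 ± 0.12 (SE), with limma's adjusted p at 0.576 and 0.260.

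The arrays did not share 1 order over the 8 probes. C replicate 4 held the highest value for Hoxd4 and Hoxd10, T replicate 5 for Hoxc4 and Hoxd9, and C replicate 1 for Hoxb4 and Hoxc5. C replicate 1 was at the same time lowest for Hoxd9 and Hoxd10. Averaged over the 8 probes, the deviation from each probe's mean ran from -0.21 on C replicate 3 to 0.19 on C replicate 4. Over the 10 arrays 0 of the 28 correlations between pairs of Hox probes passed a Benjamini-Hochberg adjusted permutation p of 0.05, and the lowest was 0.422.

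The Hoxb7 values left a gap of 0.46 between -4.10 and -3.64 with 5 arrays on either side, and the next widest gap between neighbouring values was 0.35. The upper 5 were C replicates 1 and 4 and T replicates 1, 3 and 4, so both groups and both slides were on both sides. Genes of duct epithelium (epididymis, efferent ducts and mesonephros) were set beside them. Of the 16 genes listed, 15 had a probe, 12 were tested, and Gata3, Cldn7 and Ehf were not above background. The summed level of the 12 was 1040 to 1297% of the 75th percentile over the C arrays and 1074 to 1266% over the T arrays. The brightest probes weigh most in this sum. Krt18 and Spint2 lay at a log2 level of 1.63 or higher on every array, and Cdh16, Pax8, Pax2 and Lhx1 at -3.38 or lower. The sum therefore does not measure the amount of duct epithelium. The mean deviation of the 12 genes from each gene's mean was 0.14 and 0.48 on C replicates 1 and 4 and 0.17, 0.23 and 0.17 on T replicates 1, 3 and 4. On the 5 arrays low in Hoxb7 it was -0.33, -0.31 and -0.01 on C replicates 2, 3 and 5 and -0.19 and -0.35 on T replicates 2 and 5. The 5 arrays higher in Hoxb7 had the highest mean over these 12 genes, but the complete separation depended on Cdh16. Over the other 11 genes C replicates 1 and 4 (0.10 and 0.34) and T replicates 1 and 3 (0.10 and 0.11) were still highest. T replicate 4, the array highest in Hoxb7, had a mean of -0.02, below C replicate 5 at 0.01, and the 5 arrays no longer separated.

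Cdh16, kidney cadherin, a marker of renal and mesonephric tubule epithelium, gave -5.39, -7.07, -8.08, -3.98 and -6.21 in C and -5.14, -6.78, -4.48, -3.66 and -8.99 in T. The 5 arrays higher in Hoxb7 were the highest in Cdh16 too, and the 4 arrays on which Cdh16 was not above background, C replicates 2 and 3 and T replicates 2 and 5, were all among those low in Hoxb7. Pax8, a transcription factor of the same epithelium, gave -4.13, -5.31, -5.06, -3.77 and -4.06 in C and -3.74, -4.69, -3.38, -3.90 and -5.03 in T. Here C replicate 5, low in Hoxb7, lay above C replicate 1, so the 5 arrays did not separate.

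Over the 10 arrays, 1 of the 12 duct genes passed a Benjamini-Hochberg adjusted permutation p of 0.05 in its correlation with Hoxb7, a set of relations chosen after the values were seen. That was Cdh16, with Pearson's r of 0.846 (permutation p = 0.00275, adjusted p = 0.0330) and Spearman's rho of 0.855 (permutation p = 0.00307, adjusted p = 0.0368). Without C replicate 3 and T replicate 5, the arrays farthest out in Cdh16, r was 0.920, and with each slide centred it was 0.829. Values of Cdh16 on the 4 arrays below background have only a bound. The other 11 did not pass, and they did not all go the same way. Pax8 gave r of 0.703 and Krt19, a keratin of simple epithelia, 0.678, both with an adjusted p of 0.145. Pax2, Epcam and Krt8 gave 0.196, 0.167 and 0.021, and Lhx1 and Lcn2 gave -0.263 and -0.271. Lhx1 was not above background on C replicate 1 and T replicates 1, 2 and 3, and Pax2 not on T replicate 4. Those values too have only a bound. Lcn2, a secreted lipocalin, was lowest, at -0.83, on T replicate 4, the array highest in Hoxb7. A list of 4 mesothelium genes had 2 tested, of which Krt19 was also in the duct list, and was too short to correlate. Its mean deviation was highest on C replicate 4 (0.61), T replicate 3 (0.50), T replicate 1 (0.40) and C replicate 1 (0.20), 4 of the 5 arrays higher in Hoxb7, and -0.04 on the fifth, T replicate 4. The part of duct or mesothelial tissue in the Hoxb7 values, or in its difference between T and C, was not tested.

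**Figure D4:**
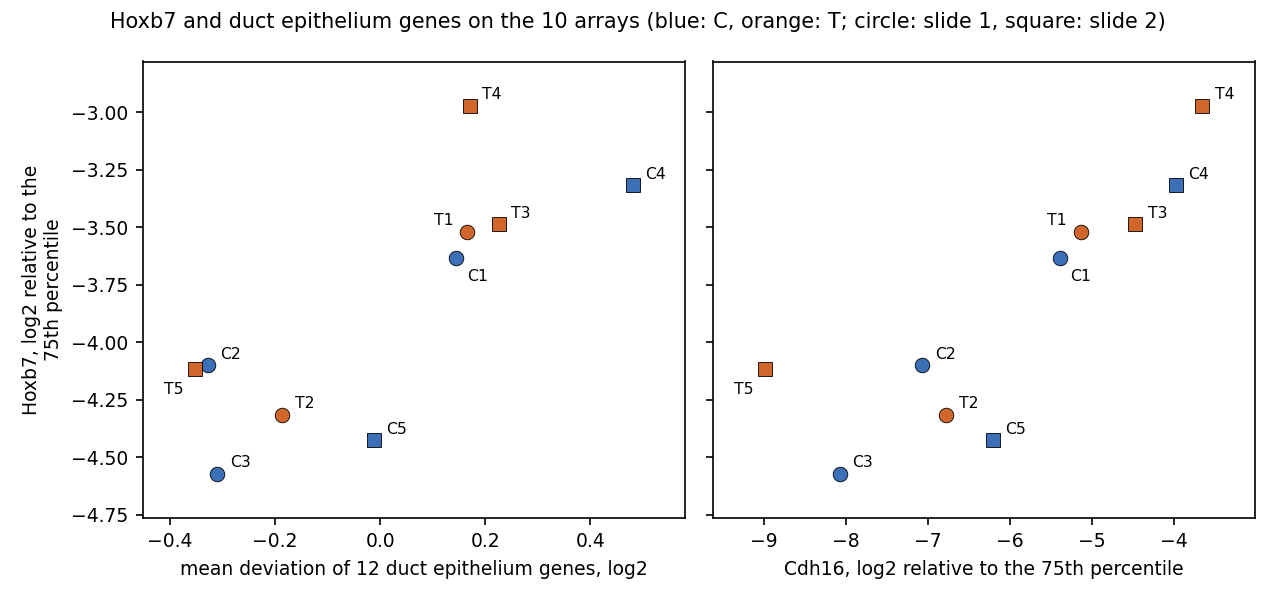
Hoxb7 log2 signal relative to the 75th percentile (vertical) against the mean log2 deviation of 12 duct epithelium genes (left) and against Cdh16 on the same scale as Hoxb7 (right), 1 point an array, with C and T by colour and slide by shape. The 5 arrays with Hoxb7 at -3.64 or higher have Cdh16 at -5.39 or higher, and the other 5 have it at -6.21 or lower.

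Each Hox probe was also correlated with the mean deviation of 12 lists of cell type markers over the 10 arrays, 96 relations in all, of which 0 passed an adjusted p of 0.05. The lowest was that of Hoxc5 against 5 nerve and Schwann cell genes, with Pearson's r of 0.845 (permutation p = 0.00217, adjusted p = 0.208) and Spearman's rho of 0.697 (permutation p = 0.0313, adjusted p = 0.375). Its r was 0.608 without C replicate 5 and T replicate 4, the arrays farthest out in those genes, and 0.813 with each slide centred. Hoxb7 against the 12 duct genes gave r of 0.787 (permutation p = 0.00965, adjusted p = 0.309) and rho of 0.770 (permutation p = 0.0127, adjusted p = 0.375), r of 0.799 without C replicate 4 and T replicate 5 and 0.753 with each slide centred. With Cdh16 left out of the list, an alternative chosen after seeing the data, r was 0.621 (permutation p = 0.0547, adjusted p = 0.749). Hoxd4 against the duct genes gave Pearson's r of 0.787 (permutation p = 0.00461, adjusted p = 0.221) and Spearman's rho of 0.733 (permutation p = 0.0208, adjusted p = 0.375). Without C replicate 4 and T replicate 5, the 2 arrays farthest out in the duct genes, r was 0.638, and with each slide centred it was 0.748. Without Cdh16 in the list r was 0.843 (permutation p = 0.00225, adjusted p = 0.108). Spearman's rho was then 0.685 (permutation p = 0.0352, adjusted p = 0.477). Without C replicates 2 and 4, the arrays farthest out in that shorter list, r was 0.62. A slide held 5 arrays, too few for r within it. As a check of the tissue, the tested genes were 7 of the 7 Sertoli cell markers with a probe, 6 of 7 Leydig cell markers (Lhcgr not above background) and 7 of 7 germ cell markers.

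Genes linked to the Hox genes by class, function or position were read from the same fit. Of them 0 passed the adjusted threshold (limma's adjusted p = 0.999 for each gene named here). Of 11 TALE-class genes, Pbx and Meis genes and Tgif1 among them, 9 were tested. Of these 7 were higher and 2 lower in T, with 1 at an unadjusted p under 0.05. Over all probes 41.6% were higher in T and 3.97% had an unadjusted p under 0.05, which is the background for the counts of each list. The 1 was Tgif1, a TALE repressor of retinoid and TGF-beta targets, at 0.15 ± 0.06 (SE). Pbx2, a direct Hox partner, differed by 0.09 ± 0.05. Of 35 Polycomb and Trithorax genes, whose products keep Hox genes silent or active, 27 were tested, 12 higher and 15 lower, with 4 at an unadjusted p under 0.05. Rbbp5, a core subunit of the histone H3K4 methyltransferase complexes, differed by -0.17 ± 0.05, and its second probe by -0.47. Phc3, a subunit of Polycomb complex PRC1, differed by -0.44 ± 0.17 and was above background on 9 arrays. Ezh1, a histone H3K27 methyltransferase, differed by 0.17 ± 0.07 on one probe and by -0.03 on another, so its probes disagreed in sign.

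Of 8 caudal, ParaHox and Evx genes, 6 had a probe and 1, Cdx2, was tested. Cdx2, which regulates Hox genes in the posterior embryo, was above background on 5 arrays and differed by -0.31 ± 0.23 (SE). Of 17 genes that flank the Hox clusters, 13 were tested, 8 higher and 5 lower, with 0 at an unadjusted p under 0.05. The smallest p-values belonged to Atf2 at -0.11 ± 0.06 and Lnpk at 0.13 ± 0.08, both beside the Hoxd cluster, and Skap2 at 0.12 ± 0.08, beside the Hoxa cluster. Of 18 genes of retinoic acid, an inducer of Hox genes in the embryo, 16 were tested, 9 higher and 7 lower, with 0 at an unadjusted p under 0.05. Crabp2, a cytoplasmic retinoic acid carrier, differed by 0.12 ± 0.06, Rara, a receptor, by 0.14 ± 0.07 and Rdh10, which oxidises retinol, by -0.12 ± 0.07. The medians of these lists lay between -0.01 and 0.08 on the log2 scale, leaving out the list with 1 tested gene, where the median of all probes was -0.02.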

How the data were processed

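Cy3-labelled cRNA from 10 testis RNA samples (5 C, 5 T) was hybridised to one-colour Agilent rat arrays. The deposited scanner files hold processed signal as intensity, background-subtracted, from Agilent Feature Extraction 10.7, per the submitters' processing notes (10.7.3.1 per the file headers). The authors also deposited a table of log2 values of 21220 probes, 8 of them Hox probes; its column medians were 0.0288, 1.42e-04, -0.0166, 0.0202 and -0.00890 over the C arrays in replicate order, then 0.00315, 0.00373, -0.00264, -0.0169 and -0.00227 over the T arrays. Its columns correlated at 0.998 to 0.999 with scanner values centred on each probe's median, so higher values meant brighter probes and probes were centred; by which centre is unknown. It served as an alternative.

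Control spots (4259 of 62976) and spots with an outlier flag (494 to 745 an array) were left out, and no spot was saturated. The 75th percentile of each array (1525 to 2686 units) was taken over 58717 spots and subtracted on the log2 scale, and spots of a probe were averaged. Between 70.5% and 74.9% of probes were above background on an array, and arrays correlated at 0.990 to 0.997. T was compared with C by limma 3.58.1 in R 4.3.3, two-sided, with no covariate, and its code was tested on simulated data. Correlations used 100000 permutations (scipy 1.17.1). Symbols and promoters were taken from RefSeq tables of GRCr8; 12369 probes had no symbol. The rule for named genes covers Hox genes by detection, gives values in every array for all 8 tested probes, and names from each context list at most 3 tested genes with the smallest p-values. Members and lists were chosen with earlier results of these data known. Alternatives covered the background correction, scaling, filters, weights, slide, sire number and each array left out. Some named items that this rule covers are not reported here, and probe and protein sequences were not used.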

Additional observations from a re-analysis of the deposited data

Results flagged for a closer look

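None of the 8 tested Hox probes held, in either group of 5, an array that stood apart by Dixon's criterion (critical value 0.71), so 0 of 16 groups met it, where about 1 in 20 would by chance.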

How the results depend on the processing

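Across 28 alternatives no Hox probe passed an adjusted p of 0.05 between T and C in limma (lowest 0.848), and no probe of the array did. Hoxa7 (0.03 to 0.25) and Hoxb7 (0.15 to 0.50) stayed higher in T throughout. Normexp, applied to the median spot signal with an offset of 50 units, gave 5 Hox probes higher in T in place of 3. It turned Hoxb4 (0.017) and Hoxc4 (0.0014) and left 0 Hox probes past the slide comparison. It gave 481 probes of the array with an unadjusted p under 0.05 in limma in place of 869. The median signals of Hoxb4, Hoxc5 and Hoxc4 were 38.3, 46.7 and 66.9 units, near that offset. The part of the offset in these changes was not tested. Slide 1 alone gave 7 higher in T and turned Hoxb4 (0.013), Hoxc5 (0.058), Hoxd4 (0.090) and Hoxd10 (0.144). Slide 2 alone turned Hoxc4 (0.0022) and Hoxd9 (-0.013). Leaving out 1 array gave 3 to 5 higher in T, with ranges of -0.135 to 0.0745 for Hoxb4, -0.0992 to 0.0256 for Hoxc4, -0.0710 to 0.0437 for Hoxd4, -0.0797 to 0.0408 for Hoxd10, -0.336 to -0.0127 for Hoxc5 and 646 to 1151 probes of the array with an unadjusted p under 0.05; the highest count of Hox probes was without C replicate 4. Without the filter all 22 Hox probes were tested. The Hoxc5 slide difference ran from -0.771 to -0.591 when 1 array was left out and was called each time; within C and within T, with fewer arrays, 0 Hox probes passed. Scan equalled slide and was not run apart. The number in the sire code, taken as a replicate block over the 3 shared numbers, turned Hoxb4 (0.034), Hoxc5 (0.222) and Hoxd9 (-0.0093). Deviations of same-numbered arrays correlated at -0.512 for C replicate 5 with T replicate 1, which lay on different slides. The correlations were 0.282 and 0.193 for the other shared numbers, whose arrays lay on the same slide. Pairing and slide could not be told apart, so whether the numbers pair the samples was not tested. Dim signals limit small differences; the cause was not tested for any change given here.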
